A study of Mus musculus with 4 samples.

Results

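Carbonic anhydrases and myoglobin handle carbon dioxide and oxygen in muscle, and 5 of their genes were examined here: Car3, Car2, Car4, Car14 and Mb. Members were all rows of the start site table that carried 1 of these symbols. In all, 23 of 42207 alternative start sites (ASSs) and 4 of 9838 genes with a symbol were found. Car3 held 12 sites, Mb held 8, Car14 held 2 and Car4 held 1, whereas Car2 had no row.

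The sites came from gastrocnemius muscle of adult male mice, 2 with a knockout of AMPKα2 (AMPKα2-/- on C57BL/6, KO) and 2 wild-type controls (WT), with 1 library per mouse. The kinase AMPK senses the energy state of the cell, Prkaa2 encodes its catalytic subunit α2, and the knockout is of the whole animal rather than of muscle alone. Whole transcriptome start site sequencing (WTSS-seq) depletes ribosomal RNA, copies the remaining RNA with a template switch at its 5′ end and reads inward from that end. The first base of a read is thus taken as the 5′ end of an RNA, be it a full transcript or a piece. No selection of capped RNA is described, and whether each site is a true RNA end was not tested.

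Carbonic anhydrases speed up the hydration of carbon dioxide to bicarbonate and a proton. Car3 encodes the abundant cytosolic enzyme of slow muscle fibres, liver and fat, and Car2 the fast cytosolic enzyme of red blood cells and many tissues. Car4 is anchored by a lipid on the outer face of capillary endothelium and muscle membranes, and Car14 spans the membrane with its active site outside the cell. Mb encodes myoglobin, the oxygen-binding haem protein of oxidative fibres and heart.

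Between 1300069 and 2900279 reads were counted per library, with more in each KO library than in either WT library. Counts up to 3 reads were treated as not told from 0, a floor of 1.03 to 2.31 ppm of reads that covers counting error only. Prkaa2 stood at 149 and 183 normalized counts in KO against 153 and 186 in WT, and its start site reads did not tell the genotypes apart (log2 fold change -0.03, SE 0.50, adjusted p = 0.994, DESeq2). Where these sites lie relative to the deleted part was not determined, so this sum does not check the labels. All 6 skeletal muscle markers (Acta1, Ckm, Myh4, Ttn, Mylpf and Tnnt3) were in the table, and their summed normalized count was 60518 and 69942 in KO against 55419 and 76041 in WT. This was bulk tissue, in which fewer cells of a type and less RNA per cell cannot be told apart.

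The promoters of Car14 and Mb are shown because these genes differed in where their reads began. RefSeq promoter sequences (GRCm38.p6) matched Car14, Car4 and Mb, with 1, 1 and 3 starts. The sequences at hand held no promoter of Car3 or Car2, so these were neither shown nor searched for motifs. Most Car14 reads began just inside the RefSeq start at 95904685 on the minus strand. They began at the 7 bases in capitals in the first line (chr3:95904636-95904665). The second line gives the 100 bases before that start (chr3:95904686-95904785). The annotated span of Car14 reaches further upstream, to 95905117, and no promoter sequence for that end was at hand. The third line gives the 250 bases before the middle of the 3 RefSeq starts of Mb (chr15:77022788-77023037, minus strand), a stretch with no listed site. Capitals there mark E-boxes (CANNTG) and a CCAC box (CCCACCC).
Car14 site: aaagcgggaggcaactgtGAAGTTGctggc
Car14 upstream: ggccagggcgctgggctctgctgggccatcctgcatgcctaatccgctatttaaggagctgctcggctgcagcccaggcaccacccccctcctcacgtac
Mb upstream: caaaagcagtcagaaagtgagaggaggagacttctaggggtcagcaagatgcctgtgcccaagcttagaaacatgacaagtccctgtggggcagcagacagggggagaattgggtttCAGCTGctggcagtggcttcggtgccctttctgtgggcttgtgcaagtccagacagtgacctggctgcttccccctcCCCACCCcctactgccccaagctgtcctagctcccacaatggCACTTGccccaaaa

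Motifs were searched on both strands in the 250 bases before each RefSeq start, which is a description of letters and not of binding. The Mb stretch held E-boxes that began 133 and 14 bases before the start (CAGCTG and CACTTG) and a CCAC box 56 bases before it. An E-box stood in 66.2% of 32851 promoters of that length and a CCAC box in 15.8%. The TATA box letters TATAAA stood in 12.4% of promoters and in none of those of Car14, Car4 and Mb. Neither an E-box nor a CCAC box was found before the starts of Car14 and Car4.

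Car3 had by far the most reads of these genes and did not pass the test between genotypes. Whether start site reads rank genes as their RNA levels do was not tested. Car3 spans chr3:14863538-14872381 on the plus strand. Its 12 sites summed to 32488 and 42376 reads in the KO libraries against 18241 and 17083 in WT, or 1.12%, 1.84%, 1.40% and 1.09% of the reads of these libraries. The normalized counts were 19844 and 37030 in KO against 25579 and 21276 in WT. KO replicate 2 was the highest and KO replicate 1 the lowest, so the groups overlapped. The group means were 28437 ± 12152 in KO against 23428 ± 3042 in WT (SD, n = 2 each). The log2 fold change of KO against WT was 0.28 (SE 0.43, 95% interval -0.57 to 1.13, adjusted p = 0.955, DESeq2). KO replicate 2 set the direction, since the log2 fold change was -0.23 without it.

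Mb, with 189 reads in all, lay far below Car3. It spans chr15:77015487-77050668 on the minus strand. Its normalized counts were 43.4 and 48.1 in KO against 33.7 and 48.6 in WT. Both WT libraries lay outside the KO values, 1 on each side. The group means were 45.7 ± 3.32 and 41.1 ± 10.5 (SD, n = 2 each), with a log2 fold change of 0.15 (SE 0.74, 95% interval -1.29 to 1.60, adjusted p = 0.992, DESeq2). The sign turned to -0.09 without WT replicate 1.

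The membrane enzymes were sparse. Car14 (chr3:95897768-95905117, minus strand) had normalized counts of 24.4 and 36.7 in KO against 32.3 and 23.7 in WT. Each group held 1 high and 1 low library and the groups overlapped. Its log2 fold change was 0.13 (SE 0.86, 95% interval -1.56 to 1.81, adjusted p = 0.992, DESeq2), and it turned to -0.18 without KO replicate 2 and to -0.11 without WT replicate 2. Car4 (chr11:84957754-84966054, plus strand) had 2 and 7 reads in KO against 1 and 5 reads in WT. Replicate 1 of each genotype was at or under the floor of 3 reads, and the gene lay below the mean normalized count of 16.5 that the independent filter required for a test. Car2 (chr3:14886269-14900770), the next carbonic anhydrase gene along chromosome 3 after Car3, was not detected. The table lists a site only from 10 reads over the 4 libraries, so sites of Car2 with fewer reads than that would not be seen.

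**Figure D1:**
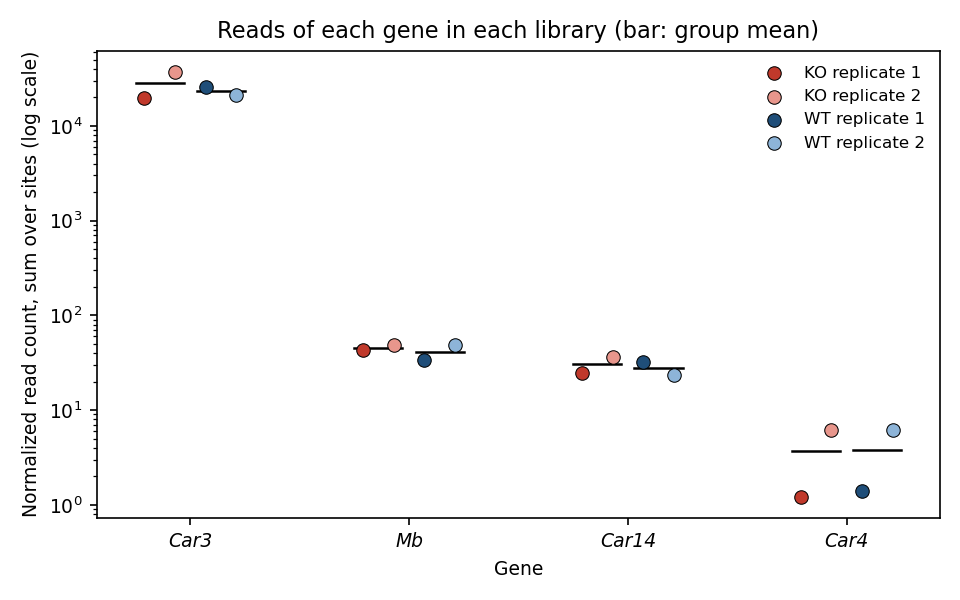
Normalized read counts summed over the sites of each gene (y axis, log scale) for Car3, Mb, Car14 and Car4 (x axis), with 1 point per library, red for KO and blue for WT, and a bar at each group mean. Car3 lies between 19844 and 37030, Mb between 33.7 and 48.6, and the KO and WT points overlap in all 4 genes.

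Of the 4 genes in the table, 3 had enough reads for the DESeq2 test and 0 were called at an adjusted p under 0.1, where the background was 2.67% of 4688 tested genes. None of the 4 had an unadjusted p under 0.05, against 6.88% of all genes with a p-value (DESeq2). The quasi-likelihood test of edgeR also called 0 of 3, against a background of 0.883% of 6115 genes. With so few genes, a share of 0 is near each of these backgrounds. Of the 3 intervals, that of Car3 was the narrowest and reached 1.13 on the log2 scale.

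Per length, Car3 was the highest and Car4 the lowest of the genes, and the order of Car14 and Mb depended on the span taken for Mb. Levels in cpm (counts scaled to a common library total) per kilobase of gene span were 1267, 2080, 1586 and 1231 for Car3 in KO replicates 1 and 2 and WT replicates 1 and 2. In the same order of libraries they were 1.88, 2.48, 2.41 and 1.65 for Car14, and 0.696, 0.679, 0.525 and 0.707 for Mb. Car4 had 0.0831, 0.366, 0.0927 and 0.384. The span includes introns, and the long span of Mb rests on a RefSeq start far upstream at 77050668 that had no listed site in its window. Over the 7301 bp from the start at 77022787, which hold all 8 sites, Mb had 3.35 and 3.27 cpm per kilobase in KO against 2.53 in WT replicate 1, and WT replicate 2 lay just above the KO libraries. Mb thus lay below Car14 in each library over the long span and above it over the short one. Since a read marks a 5′ end, a longer RNA need not give more reads, and division by length describes read density only. Without that division Mb had 24.5 and 23.9 cpm in KO and 18.5 and 24.9 in WT. Car14 had 13.8 and 18.2 cpm in KO and 17.7 and 12.1 in WT, below Mb in each library.

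Nearly all Car3 reads began at either end of the gene. The start site lay at chr3:14863496-14863548, 53 bp wide, with its peak 33 bp before the RefSeq start at 14863538. Its class code was o, a partial overlap with an exon. It had 25336 and 33374 reads in KO against 11737 and 15229 in WT, and by reads it ranked between 8 and 12 among all 42207 sites of each library. The normalized counts of this site were 16627 and 28802 in KO against 15927 and 17591 in WT. KO replicate 2 stood apart above the other 3 libraries, and KO replicate 1 lay inside the WT range. The log2 fold change was 0.44 (SE 0.55, 95% interval -0.65 to 1.53, adjusted p = 1.00, DESeq2).

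The other main site lay at chr3:14871987-14872324, contained in the transcript (class code c), with its peak 87 bp before the gene end. It spanned 338 bp, where the median width of all sites was 13 bp and 0.204% of sites were as wide. Its normalized counts were 4562 and 7570 in KO against 8701 and 2010 in WT. The WT libraries were the highest and the lowest and lay 4.33-fold apart. Of 117 sites with a mean normalized count of at least 1000, 7 had WT libraries as far apart, and the median ratio of the higher to the lower WT library was 1.35. At the start site the WT libraries lay 1.10-fold apart. The log2 fold change of the site near the gene end was 0.18 (SE 0.70, 95% interval -1.19 to 1.55, adjusted p = 1.00, DESeq2).

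As a share of Car3 reads, the start site held 78.0% (95% Wilson interval 77.5 to 78.4) in KO replicate 1 and 78.8% (78.4 to 79.1) in KO replicate 2. In WT it held 64.3% (63.6 to 65.0) and 89.1% (88.7 to 89.6). The KO libraries were nearly equal, and the WT libraries lay on either side of them. The site near the gene end mirrored this with 21.4% and 20.7% in KO against 35.2% and 10.2% in WT. The start site averaged 78.4% ± 0.545 in KO against 76.7% ± 17.5 in WT (SD, n = 2 each). There were 3.64 and 3.80 reads at the start per read near the gene end in KO, against 1.83 and 8.75 in WT. Intervals within a library cover counting error only, and the spread between the WT libraries was far larger than these intervals. With 1 library per mouse, the parts of the mouse and of the library preparation cannot be told apart.

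**Figure D2:**
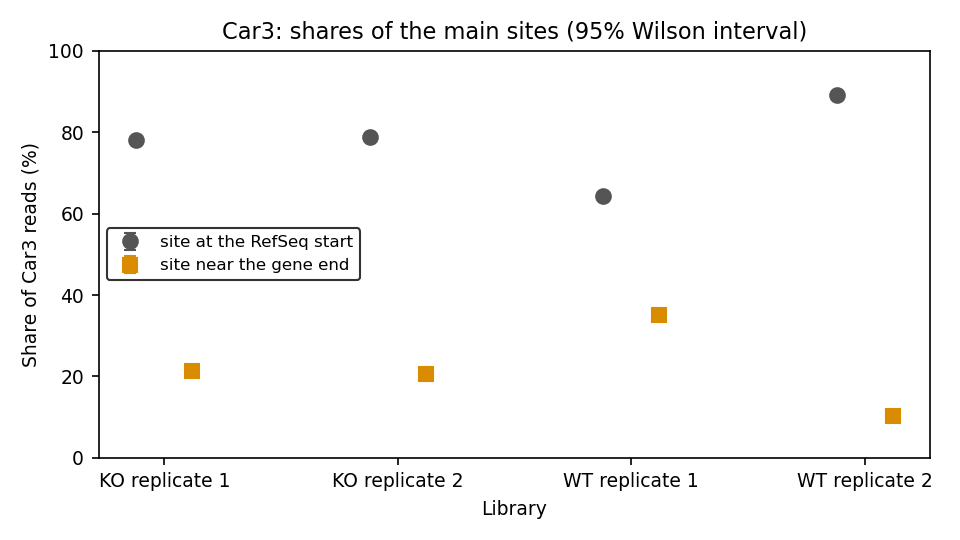
Share of Car3 reads in percent (y axis) at the site at the RefSeq start (grey circles) and at the site near the gene end (orange squares) in each library (x axis), with 95% Wilson intervals that are smaller than the symbols. The start site holds 78.0% and 78.8% in the KO libraries, between the WT values of 64.3% and 89.1%.

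Together both main sites held 99.4% of Car3 reads. Among 340 genes with at least 10 sites and at least 1000 reads, 0 had a larger share in their top 2 sites, and the median was 65.6%. The single top site held 77.8% of Car3 reads, a share exceeded by 51 of these genes, against a median of 48.3%. Usage of start sites within Car3 was tested over the 6 sites that passed the count filter and did not differ between genotypes past the threshold (adjusted p = 1.00, diffSpliceDGE of edgeR with the Simes method). In all, 1.77% of 2145 genes passed that test.

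The 10 minor sites of Car3 held 0.616% and 0.543% of its reads in KO against 0.504% and 0.667% in WT. The largest lay 45 bp past the gene end (chr3:14872408-14872498, class code p, just outside a gene). Its normalized counts were 58.4 and 50.1 in KO against 40.7 and 34.7 in WT, and both KO libraries lay above both WT libraries. The log2 fold change was 0.53 (SE 0.84, adjusted p = 1.00, DESeq2). A site at chr3:14871742-14871774 had 31.5 and 81.1 in KO against 25.8 and 50.8 in WT, with overlap (log2 fold change 0.55, SE 0.91). A further site at chr3:14871592-14871642 had 4.59 and 19.0 in KO against 35.3 and 21.9 in WT. Both KO libraries lay below both WT libraries there, with a log2 fold change of -1.29 (SE 1.19, adjusted p = 1.00, DESeq2). The remaining 7 sites had 10 to 42 reads each over the 4 libraries. Of these, 3 clustered 716 to 827 bp past the start, 2 were intronic and the others lay further in. A site of the predicted gene Gm41999 with 5, 1, 0 and 8 reads ended 52 bp before the Car3 start site and was not added to Car3.

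**Figure D3:**
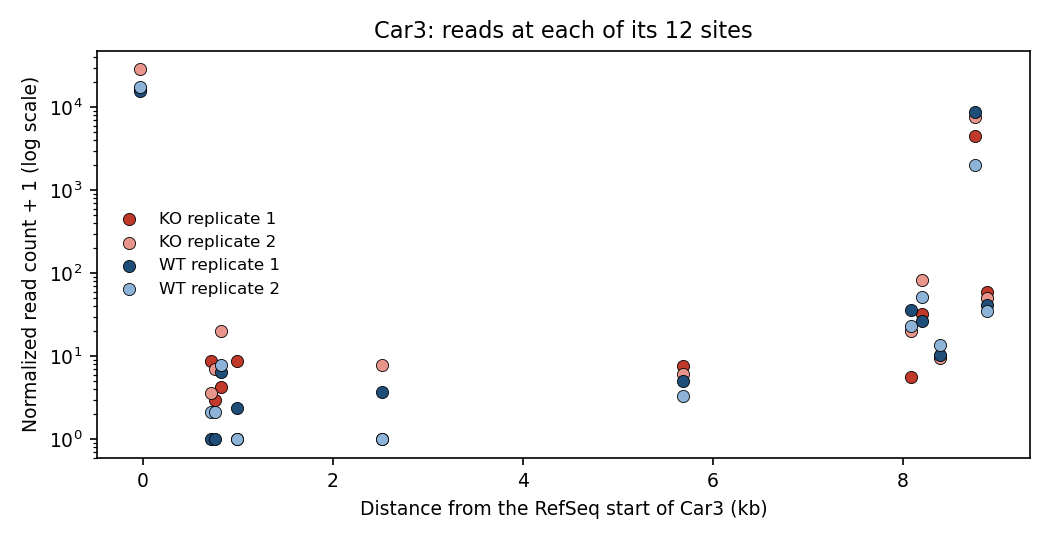
Normalized read count plus 1 (y axis, log scale) at the 12 sites of Car3 against their distance in kb from the RefSeq start (x axis), with 1 point per library, red for KO and blue for WT. The start site and the site 8756 bp past the start stand above the rest by over an order of magnitude, and the WT points at the latter are the highest and the lowest.

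In contrast to Car3 and Car14, Mb had few reads near its annotated starts. A site within 200 bp of a RefSeq start held 77.8% of reads in Car3, 81.5% in Car14 and 6.88% in Mb. For Car14 this start was the one at 95904685, inside its annotated span. For Mb the site was at chr15:77022574-77022606, 143 bp past the start at 77022727, with 4 and 5 reads in KO against 1 and 3 in WT. All 3 Mb promoter windows, from 250 bases before to 50 bases after each start, held 0 sites.

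Most Mb reads began further into the gene. The site with most reads (chr15:77017712-77017750, class code c) lay 4980 bp past the start, with 13 and 19 reads in KO against 5 and 18 reads in WT. The next (chr15:77015827-77015909, class code c) lay 385 bp before the gene end and had 29 and 6 reads in KO against 7 and 6 in WT. Its sum rested on KO replicate 1, and the other 3 libraries were alike. Their log2 fold changes were -0.16 (SE 1.36) and 0.57 (SE 1.52), and both groups overlapped at each site (adjusted p = 1.00 for both, DESeq2). Of the sparse sites, chr15:77017777-77017781 had 3 and 4 reads in KO against 5 and 4 in WT, and the intronic site chr15:77020527-77020553 had 5 and 5 in KO against 2 and 4 in WT. Usage within Mb rested on 2 sites and did not pass the test (adjusted p = 1.00, diffSpliceDGE with the Simes method).

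A pair of Mb sites lay on the opposite strand and held 14.3% of the reads assigned to the gene. The antisense exonic site (chr15:77015646-77015648, class code x) had 9 and 7 reads in KO against 0 and 0 in WT. It reached the minimum of 10 reads through the KO libraries alone, which were also the deeper ones, and had too few reads to be tested. The other (chr15:77018159-77018160, class code i) had 4 and 4 reads in KO against 0 and 3 in WT. These reads lie on the strand opposite to the myoglobin messenger RNA, and without intronic and antisense sites the log2 fold change of Mb kept its sign.

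**Figure D4:**
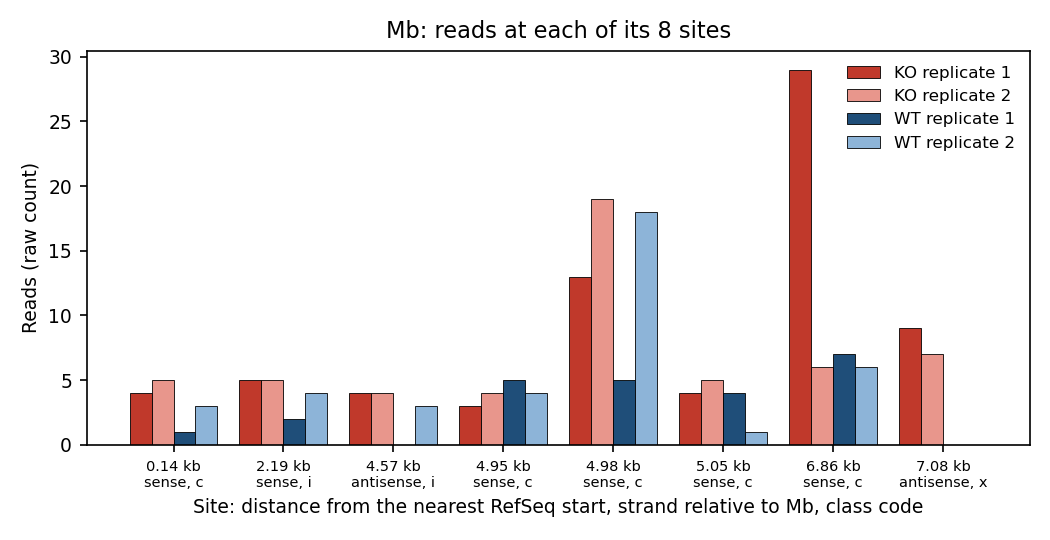
Raw reads (y axis) at the 8 sites of Mb in each library (red bars KO, blue bars WT), ordered on the x axis by distance in kb from the nearest RefSeq start, with strand relative to Mb and class code. Reads are highest in the sites 4980 bp and 6855 bp past the start, and the antisense exonic site has 9 and 7 reads in KO against 0 in both WT libraries.

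Car14 had its main site at the sequence shown above (chr3:95904641-95904647, class code c), 43 bp past the RefSeq start. It had 22 and 38 reads in KO against 23 and 18 reads in WT. The normalized counts were 14.4 and 32.8 in KO against 31.2 and 20.8 in WT, and the groups overlapped (log2 fold change -0.14, SE 1.06, adjusted p = 1.00, DESeq2). The other Car14 site was intronic (chr3:95903674-95903683), 1006 bp past the start, with 18 and 4 reads in KO against 0 and 1 in WT. KO replicate 1 held most of these reads, and the site was too sparse to be tested. It reached the listing minimum of 10 reads through the KO libraries, which were also the deeper ones. With intronic, antisense and outside sites left out, the log2 fold change of Car14 was -0.07 instead of 0.13. The single Car4 site (chr11:84965630-84965652, class code c) lay 7876 bp past the start and 424 bp before the gene end, so the annotated start of Car4 held 0 sites.

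By class code, 13 of the 23 sites were contained in a transcript (c), 5 were intronic (i), 3 had another exonic overlap (o), 1 lay just outside a gene (p) and 1 was antisense (x). Among all sites with a gene, 52.0% were intronic, 38.6% were contained and 1.84% had the code o. Of the 23 sites, 9 had enough reads for the DESeq2 test and 0 were called, where 3.21% of 11112 tested sites were called. None of the 23 had an unadjusted p under 0.05, against 4.05% of all sites with a p-value (DESeq2). With so few sites, a share of 0 is near that value. The edgeR test called 0 of 9, against 0.712% of 11242 sites. The normalized counts of KO and WT did not overlap in 9 of the 23 sites, 6 higher and 3 lower in KO. This is near the background of 36.0% of all sites.

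Other genes of the same chemistry were read from fixed lists. Of 12 other carbonic anhydrases, 3 were in the table and 0 passed the independent filter of DESeq2. Car8, a relative without catalytic activity, had 28 and 9 reads in KO against 12 and 18 in WT, and it alone passed the filter of edgeR (log2 fold change -0.66, adjusted p = 0.852). Car13, a cytosolic enzyme, had 5 and 15 reads in KO against 0 and 0 in WT. Its reads reached the listing minimum of 10 through the KO libraries alone, which were also the deeper ones. Car5b, a mitochondrial enzyme, had 3 and 0 reads in KO against 0 and 7 in WT. These 3 genes were close to the detection limit, and Car3 held almost all carbonic anhydrase reads.

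Of 15 carriers of bicarbonate, protons and lactate, 10 were in the table and 4 were tested. None was called in either direction, 3 were higher in KO, and the median log2 fold change was 0.40 against 0.01 over all 4688 tested genes. Slc16a1, the monocarboxylate transporter that moves lactate with a proton, had normalized counts of 1128 and 842 in KO against 962 and 683 in WT (log2 fold change 0.26, SE 0.43, adjusted p = 0.961, DESeq2). Slc4a4, a sodium bicarbonate cotransporter, had 374 and 420 in KO against 278 and 268 in WT, with no overlap (log2 fold change 0.54, SE 0.44, adjusted p = 0.866). Without intronic and antisense sites the log2 fold change of Slc4a4 was -0.64. Slc4a2, an anion exchanger, had 252 and 197 in KO against 179 and 436 in WT (log2 fold change -0.46, SE 0.54, adjusted p = 0.931), and WT replicate 2 set its direction, with 0.29 without it.

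Of 15 oxygen and hypoxia genes, 11 were in the table, 10 were tested and 0 were called. Their median log2 fold change was -0.12, and 2 were higher in KO. Ldha, lactate dehydrogenase A, had normalized counts of 387 and 571 in KO against 513 and 782 in WT (log2 fold change -0.44, SE 0.46, adjusted p = 0.919, DESeq2). Arnt, the partner subunit of hypoxia-inducible factors, had 62.9 and 70.8 in KO against 65.9 and 85.9 in WT (log2 fold change -0.19, SE 0.62, adjusted p = 0.992). Epas1, which encodes hypoxia-inducible factor 2α, had 51.9 and 20.1 in KO against 170 and 51.1 in WT. Its log2 fold change was -1.61 (SE 0.76, adjusted p = 0.442, DESeq2), and KO replicate 1 lay just above WT replicate 2. WT replicate 1 weighed most, with -0.50 without it, and leaving out KO replicate 1 gave -2.45.

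**Figure D5:**
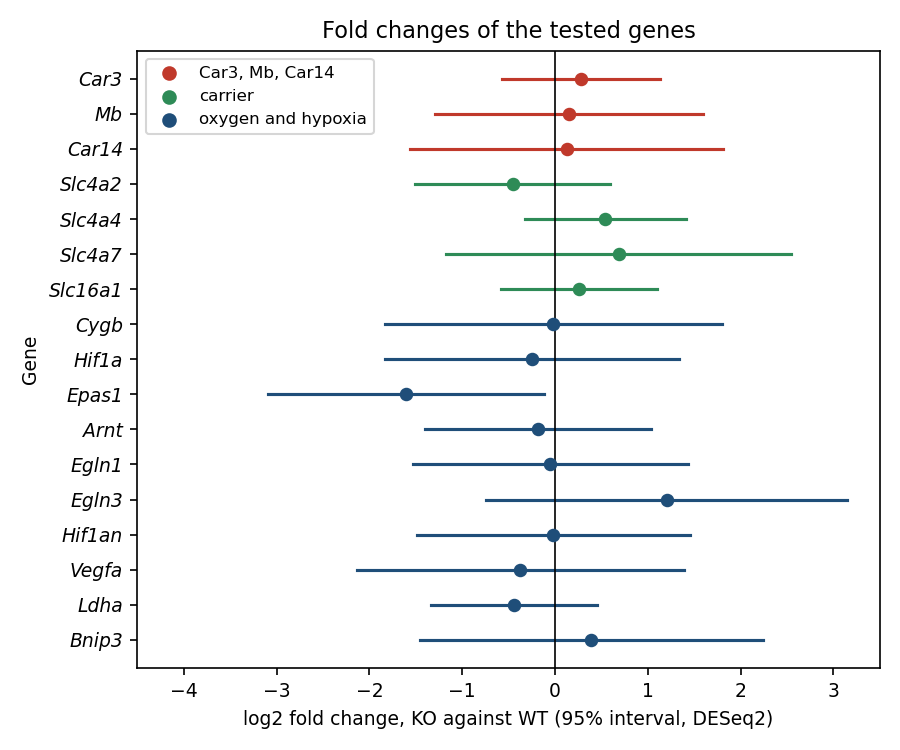
Log2 fold change of KO against WT (x axis) with its 95% interval from DESeq2 for the tested genes (y axis), red for Car3, Mb and Car14, green for carriers and blue for oxygen and hypoxia genes. All intervals but that of Epas1 include 0, and Epas1 had an adjusted p of 0.442.

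Cell types that also express these genes were read from marker lists. Of 8 adipocyte markers, 6 were in the table, without Cidec and Retn, and Fabp4 had most reads. Their summed normalized count was 5910 and 3015 in KO against 5913 and 3339 in WT. Nearly all of this sum was Fabp4, and the other 5 markers summed to 119 and 154 in KO against 194 and 142 in WT. The 2 sums ordered the libraries differently. How much of Car3 came from adipocytes was not tested. Slow fibre markers, of which 7 of 8 were in the table and Myl2 was not, summed to 1145 and 1654 in KO against 534 and 1242 in WT. WT replicate 1 was the lowest library for this sum and for Mb, but also for the fast fibre and the skeletal muscle sums. Car3 was lowest in KO replicate 1 instead. The part of fibre type in the levels of Mb and Car3 was not tested. Of the 6 slow fibre genes tested, 0 were called and 5 were higher in KO. Their median log2 fold change was 0.64, against 0.01 over all tested genes. Fast fibre markers, 10 of 10 in the table, summed to 35870 and 47360 in KO against 33650 and 55341 in WT.

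Red blood cell markers were nearly absent, with 2 of 7 in the table and sums of 28.1 and 24.5 in KO against 21.0 and 16.2 in WT, and the β-globin genes Hbb-bs and Hbb-bt had no row. Of 9 endothelial markers, 7 were in the table, without Egfl7 and Tie1, and they summed to 285 and 262 in KO against 259 and 257 in WT. Flt1 carried most of this sum with 236 and 175 in KO against 146 and 146 in WT, whereas Pecam1, a defining marker, had 15.9 and 6.99 in KO against 29.4 and 33.6 in WT. The median log2 fold change of the 3 tested endothelial genes was -0.22 with 0 called, and the part of endothelium in the level of Car4 was not tested. Fibroblast markers, 7 of 7 in the table, summed to 2616 and 2183 in KO against 3266 and 3165 in WT, with a median log2 fold change of -0.56 over 6 tested genes and 0 called.

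The genes whose pattern over the 4 libraries was most like that of a member were found by the distance between centred log2 normalized counts. For Car3 these were Anp32e, Kpna3 and Arhgap5, with distances of 0.0527, 0.0794 and 0.105, where the median over 1397 genes was 1.03. Each was highest in KO replicate 2, as Car3 was, which follows from the way they were picked. For Mb they were Gpcpd1, Sh3bgrl and Myom1, with distances of 0.0856, 0.0919 and 0.114 against a median of 0.898 over 1398 genes. Each was lowest in WT replicate 1, which likewise follows from the way they were picked. With 4 libraries such likeness is common, and 84 and 198 genes lay within a distance of 0.5 of Car3 and Mb.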

How the data were processed

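WTSS-seq libraries of 2 KO and 2 WT mice were analysed, grouped by their labels. The authors deposited 1 table of raw read counts, with 1 row per clustered ASS and 1 column per library. They assigned each site a gene and a Cuffcompare class code. Mapping and clustering were described for the sister 3′-end libraries, and settings for the 5′ ends are not given in the sources used here. The build in the submitters' processing notes is GRCm38.p5, and RefSeq positions and promoters are of GRCm38.p6. The listed sites have at least 10 reads (median 19), which admits sites of deeper libraries more readily. No molecular identifiers were described, so PCR copies count as reads. The line of column totals was left out.

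Counts were summed per symbol and fitted in R 4.3.3 with DESeq2 1.42.0 (Wald test), using median of ratios size factors, default independent filtering (mean normalized count above 16.5 for genes and 8.76 for sites) and a Benjamini-Hochberg adjusted p under 0.1 over all features. The test and its threshold follow the study's methods. The quasi-likelihood test and diffSpliceDGE of edgeR 4.0.16 were run beside it. Fits were also run on simulated counts with larger changes than those of the member genes, as a check of the code only. Summaries used Python 3.11.15. Wilson intervals are at 95%, and likeness used a pseudocount of 0.5 and genes with a mean normalized count of at least 100. Every site was named for genes with up to 5 sites. For other genes these were the 5 sites with most reads and the one nearest the start. From each list the 3 genes with the largest mean normalized count were named. The antisense pair of Mb was described after its values were seen. Members and lists were chosen with earlier results of these data known, and the study had named Car3 from 3′ ends of the same mice. One marker list is not reported here.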

Additional observations from a re-analysis of the deposited data

How the results depend on the processing

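None of the Car3, Mb, Car14 and Car4 genes or sites was called under any alternative run, and usage within Car3 and Mb passed under none. Features that a run did not test could not be called in it. Car4 as a gene had an adjusted p only with independent filtering off, and the main fit tested 9 of the 23 sites. The small fold changes were not stable in sign. Leaving out 1 library in turn moved the log2 fold change between -0.23 and 0.67 for Car3, -0.09 and 0.41 for Mb, -0.18 and 0.40 for Car14, and -1.64 and 1.35 for Car4, with Car3 turning without KO replicate 2, Mb without WT replicate 1, Car14 without KO replicate 2 or WT replicate 2, and Car4 without KO replicate 1 or WT replicate 2. Likewise the range was -4.75 to 1.82 for Car5b, -0.96 to 0.29 for Slc4a2, -2.45 to -0.50 for Epas1 and -0.17 to 0.12 for Prkaa2. Without intronic, antisense and outside sites it was -0.07 for Car14, 0.17 for Car4 and -0.64 for Slc4a4. The causes were not tested. The mean level of Mb was 0.651 cpm per kilobase of its whole span and 3.14 over the span from its middle RefSeq start, an alternative chosen after seeing the data. Of 42 alternatives for the member genes 34 kept the direction and 8 turned it.

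Over all genes, 80 rose and 45 fell, against 33 and 21 with edgeR and 41 and 18 without intronic, antisense and outside sites. Leaving out 1 library gave 34 to 64 that rose and 9 to 36 that fell. Over all sites, 259 rose and 98 fell, against 48 and 32 with edgeR and 123 and 52 with independent filtering off. At a threshold of 0.05, 164 sites rose. Leaving out 1 library gave 28 to 227 that rose and 16 to 84 that fell.

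Same-numbered KO and WT libraries did not deviate together (correlation 0.0663 over 6008 genes and 0.0703 over 10728 sites). The labels do not state whether the numbers pair the mice, and this correlation cannot decide it. With the number as a replicate block, the log2 fold change of Car3 was 0.22 with DESeq2 and 0.19 with edgeR. Site calls under the replicate block were 145 that rose and 50 that fell with DESeq2, and 1 and 0 with edgeR. Gene calls under the block went the other way with edgeR, with 60 that rose and 36 that fell against 33 and 21 without it. With DESeq2 they were 63 and 32 against 80 and 45. Usage of Mb gave no value without KO replicate 1, and Car4 none with edgeR. Car4, Car14, Mb and the antisense site had few reads and intervals too wide to place a change. The interval of Car3, with far more reads, also ran from -0.57 to 1.13 on the log2 scale. The parts of depth and of the spread between the 2 libraries of a group were not separated.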
